A study of Mus musculus with 3 samples.

Results

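Thymocytes that carried at least 2 UMIs of Il2ra, the gene of CD25 (the alpha chain of the IL-2 receptor), were taken from single-cell RNA libraries of mouse thymus. A UMI (unique molecular identifier) count is the number of distinct transcript molecules sequenced from a gene in a cell. Cells needed at least 500 detected genes and under 10% mitochondrial UMIs, no UMI of Foxp3, Ctla4 or Zbtb16 (genes of regulatory, activated and innate-like T cells), and at most 3 UMIs summed over Cd4, Cd8a and Cd8b1. This left 166 of 23864 filtered cells (25077 barcodes in all). They are called Il2ra+ thymocytes here, and the rule's own genes (Il2ra, Foxp3, Ctla4, Zbtb16, Cd4, Cd8a and Cd8b1) are given only as a description.

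There were 3 libraries, each from the thymus of a female mouse of 4 weeks, and 1 library per genotype: p53 AD/-, p53-/- and p53+/-. By these labels no library was wild type, and the p53+/- library is the one the other 2 are set against. What AD stands for is left unexplained by the sample labels; p53 dimers are named in the title. The design text calls the first group WT where its sample label gives p53+/-, and the name p53+/- is kept. The strain labels give a BALB/C mix with C57BL7 for p53 AD/-, C57BL8 for p53-/- and C57BL6 for p53+/-. Mouse, library and genotype cannot be told apart, so no test was made between genotypes, and all intervals below are 95% intervals that cover counting error only.

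T cell precursors pass through CD4- CD8- stages before they become CD4+ CD8+ (double-positive, DP) cells. CD25 appears at the DN2 stage, together with the stem cell factor receptor Kit, and stays on at DN3, where Kit is lost, the T cell receptor beta chain gene is rearranged and its product pairs with pre-T alpha, encoded by Ptcra. Notch1 on the precursor is engaged by ligands on thymic epithelium. Its freed intracellular part then joins the DNA-binding protein RBPJ and Mastermind proteins and drives genes such as Hes1, a transcriptional repressor, Dtx1, a ubiquitin ligase of the Notch pathway, Ptcra and Myc. Signalling by the pre-T receptor (beta-selection) ends the stage: CD25 and Notch target transcripts go down and the cells divide.

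The upstream sequences of Ptcra and Dtx1 are shown because both genes are Notch targets whose transcripts marked these cells. Each is the 250 bases before the RefSeq start on GRCm38.p6, read 5′ to 3′ on the gene's strand, from chr17:46763713-46763962 (minus strand) for Ptcra and chr5:120711670-120711919 (minus strand) for Dtx1. Capitals mark TGGGAA, the core of the sequence that RBPJ binds, searched on both strands.
Ptcra: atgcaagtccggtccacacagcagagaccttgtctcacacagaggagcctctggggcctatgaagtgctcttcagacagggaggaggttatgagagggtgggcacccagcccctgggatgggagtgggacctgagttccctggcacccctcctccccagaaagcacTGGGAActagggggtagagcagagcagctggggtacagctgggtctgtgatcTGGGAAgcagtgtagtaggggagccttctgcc
Dtx1: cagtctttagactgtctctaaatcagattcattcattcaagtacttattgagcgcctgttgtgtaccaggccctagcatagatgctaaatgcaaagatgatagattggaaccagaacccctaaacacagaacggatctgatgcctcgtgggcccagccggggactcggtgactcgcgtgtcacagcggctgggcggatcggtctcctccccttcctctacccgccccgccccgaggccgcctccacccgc
The Ptcra window held 2 matches, which begin 84 and 32 bases before the start (positions -84 and -32), and the Dtx1 window held 0. Among 32851 RefSeq windows of this length 21.6% held at least 1 match and 2.77% held 2 or more. The windows of Il2ra, Notch1, Notch3, Nrarp and Igf1r also held 0 and that of Hes5 held 2. A match describes these letters and not a bound site.

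Il2ra+ thymocytes numbered 32 of 6171 filtered cells in the p53 AD/- library (0.519%, exact Clopper-Pearson interval 0.355% to 0.731%), 75 of 9543 in the p53-/- library (0.786%, 0.619% to 0.984%) and 59 of 8150 in the p53+/- library (0.724%, 0.552% to 0.933%). The 3 intervals overlapped. The limits were applied in turn, regulatory and innate genes before coreceptors, and a cell was counted at the first limit it failed. Of 53, 188 and 127 filtered cells with at least 2 Il2ra UMIs, 12, 74 and 45 carried Foxp3 or Ctla4. A further 8, 33 and 20 exceeded the coreceptor limit, in p53 AD/-, p53-/- and p53+/-. Cells that failed both were not counted apart. Median depth was 12021, 12807 and 12106 UMIs per Il2ra+ thymocyte, against 2484, 3062 and 3238.5 over all filtered cells. The summed depth was 474681, 1384840 and 1083301 UMIs, so values of the p53 AD/- cells are the least precise. Of barcode sequences, 15, 29 and 21 occurred in both libraries of the pairs p53 AD/- with p53+/-, p53-/- with p53+/- and p53 AD/- with p53-/-, and none was an Il2ra+ thymocyte in both. Doublets could not be removed: Scrublet called 1 of 25077 barcodes, so its calling has not worked here.

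Expression was summed over the cells of each library and is given as CPM, UMIs scaled to 1e6 UMIs of the same cells. The Il2ra+ thymocytes were set against all other filtered cells with edgeR's quasi-likelihood test on these sums, with the library as a block, so that the 3 libraries, of different genotypes, served as replicates. Of 12910 genes tested, 13.4% were higher and 17.5% lower in Il2ra+ thymocytes at a Benjamini-Hochberg adjusted p under 0.05. All p-values in the next paragraphs are of this test. The reference is mostly DP cells, and the cells were chosen on transcripts of these same libraries. The test therefore shows which other genes went with the rule as a whole. Its limits on coreceptor, regulatory and innate genes cannot be told apart from Il2ra here. Cells with no Il2ra UMI that met the other limits were not used as the comparison.

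Of the Notch receptors, Notch1 and Notch3 rose and Notch2 and Notch4 did not pass the test. Notch1 stood at 124, 249 and 219 CPM in Il2ra+ thymocytes of p53 AD/-, p53-/- and p53+/-, against 26.9, 73.5 and 59.1 CPM in other cells of the same libraries (log2 fold change 1.97, adjusted p = 1.4e-12 by edgeR's quasi-likelihood test). Notch3 stood at 14.7, 39.7 and 49.8 CPM, against 2.85, 7.34 and 6.75 CPM (2.67, adjusted p = 2.1e-08 by the same edgeR test). In each library the Il2ra+ thymocytes lay above the other cells for both receptors.

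Of 8 Notch target genes tested, 4 rose and 0 fell. Hes1 had the widest gap, with 386, 479 and 274 CPM in Il2ra+ thymocytes against 14.5, 43.1 and 15 CPM in other cells (log2 fold change 4.13, adjusted p = 5.7e-17 by edgeR). Dtx1 reached 29.5, 18.1 and 25.8 CPM against 6.25, 8.11 and 6.63 CPM (1.79, adjusted p = 3.9e-05 by edgeR). Ptcra reached 198, 121 and 109 CPM against 60.5, 36.5 and 37.0 CPM (1.72, adjusted p = 3.1e-11 by edgeR). Myc, a growth regulator, reached 69.5, 96.0 and 97.8 CPM against 15.8, 18.2 and 19.7 CPM (2.37). Nrarp, Hes5 and Igf1r did not pass, with log2 fold changes of 0.83, 0.87 and 0.57. Of 13 genes that process Notch receptors 0 rose and 3 fell, among them the protease gene Adam17 (-1.16). Of 10 genes of the nuclear complex and its brakes, the coactivator gene Maml3 rose (1.68), Ep300 and Itch fell (-0.90 and -0.62), and Rbpj did not pass (0.13).

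**Figure D1:**
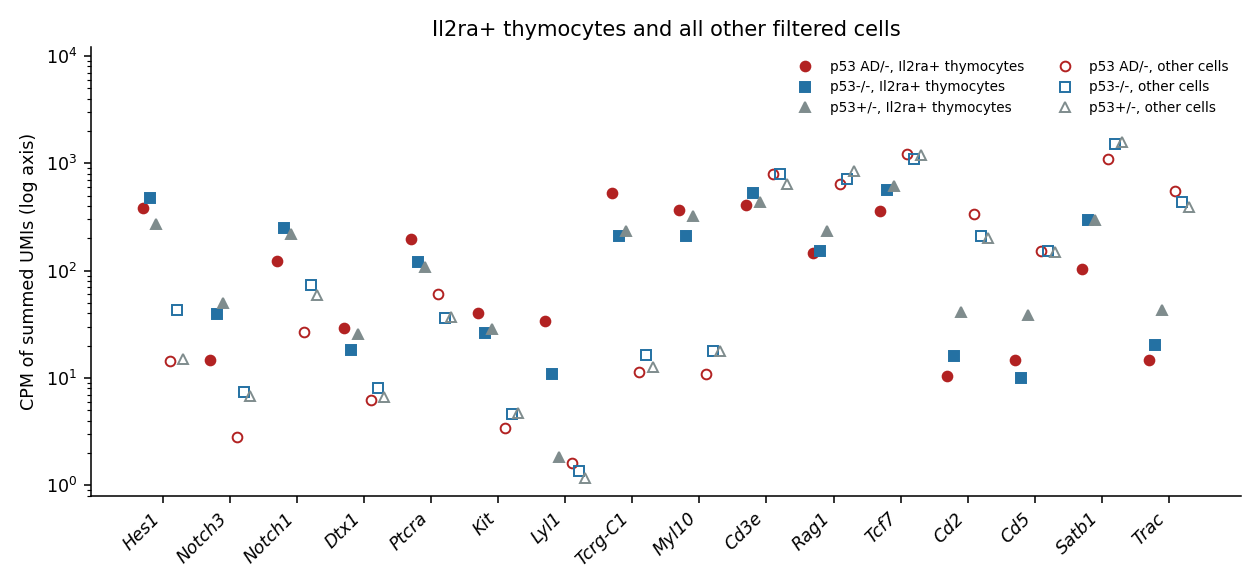
CPM of 16 genes (log axis) in Il2ra+ thymocytes (filled) and all other filtered cells (open) of the p53 AD/-, p53-/- and p53+/- libraries; each point is the summed value of 1 library. Hes1, Notch3, Notch1, Dtx1, Ptcra, Kit, Lyl1, Tcrg-C1 and Myl10 lie above the other cells in every library, and the genes from Cd3e to Trac lie below them in every library.

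Of 11 progenitor genes tested, 5 rose and 1 fell. Those that rose were Kit (log2 fold change 2.88), the transcription factor genes Lyl1 (3.04), Hhex (2.17), Bcl11a (2.77) and Mef2c (1.26). Kit stood at 40.0, 26.0 and 28.6 CPM in Il2ra+ thymocytes against 3.40, 4.63 and 4.74 CPM in other cells. Hhex did not pass when the p53 AD/- library (adjusted p = 0.090 by edgeR) or the p53-/- library (0.096 by edgeR) was left out. The adhesion receptor gene Cd44 fell (-1.39), and Spi1 and Flt3 did not pass (0.93 and -0.93). Flt3, a receptor gene of earlier progenitors, had 0 UMIs in p53 AD/- and p53+/- Il2ra+ thymocytes.

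Genes used by T cell precursors before the alpha chain is made were also high. Tcrg-C1, a gamma chain constant gene, stood at 529, 212 and 234 CPM in Il2ra+ thymocytes against 11.4, 16.3 and 12.7 CPM in other cells (log2 fold change 4.49, adjusted p = 1.9e-15 by edgeR). Tcrg-C2 and Tcrg-C4 rose too (4.12 and 3.39), and since the gamma constant genes resemble each other their reads may be split between copies. Trdc, the delta chain constant gene, rose by a log2 fold change of 1.10. The mast cell protease gene Cpa3 (4.95), the myosin light chain gene Myl10 (4.28), Plac8 (3.77), the protease inhibitor gene Ctla2a (3.58) and the ETS factor gene Erg (4.78) were higher in all 3 libraries. These were picked after their values were seen.

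Of the 13 genes of the pre-T receptor and its signalling chain 3 rose and 10 fell. Beside Ptcra, Cd3g rose (2134, 1260 and 1234 CPM in Il2ra+ thymocytes against 1451, 973 and 997 CPM in other cells, log2 fold change 0.47) and so did the kinase gene Syk (1.33). The CD3 genes Cd3e, Cd3d and Cd247 fell (-0.65, -0.74 and -1.54), as did the beta constant genes Trbc1 and Trbc2 (-1.21 and -1.18), whose reads may be split between near-copies, the kinase genes Lck (-0.83), Fyn (-1.22) and Zap70 (-1.52). Zap70 stood at 4.21, 23.1 and 24.9 CPM against 63.6, 59.9 and 58.4 CPM. Summed over 35 variable genes of the beta chain (Trbv), Il2ra+ thymocytes held 31.6, 22.4 and 33.2 CPM against 160, 140 and 157 CPM in other cells. The alpha constant gene Trac stood at 14.7, 20.2 and 43.4 CPM against 548, 433 and 392 CPM (-3.94, adjusted p = 5.5e-15 by edgeR). Of the recombination genes Dntt, which adds bases at receptor joints, rose by 0.39 but lay at the level of preselection DP cells when those were the comparison (log2 fold change -0.0036), and Rag1 and Rag2, the recombinase, fell (-2.01 and -0.90).

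Of 17 T lineage transcription factors 4 rose and 9 fell. Runx1 (log2 fold change 0.91), Erg, Myb (0.42) and Runx3 (0.76) were higher. Runx3 did not pass without the p53 AD/- library (adjusted p = 0.11 by edgeR), and Myb did not with preselection DP cells as the comparison (0.23 by edgeR). Satb1 (-2.56), a chromatin organiser, Id3 (-2.28), Ets1 (-1.29), Tcf7 (-1.14), Lef1 (-1.04), Ikzf1 (-0.99), Bcl11b (-0.64) and Tcf12 (-0.61) were among those that fell. With preselection DP cells as the comparison Lef1 missed the threshold (adjusted p = 0.057 by edgeR). Gata3 did not pass (0.06). Genes switched on by beta-selection were mostly low: 7 of 13 fell, among them Cd2 (-3.20), Cd5 (-2.77), Cd28 (-2.19) and Cd27 (-1.79), and 2 rose, the transferrin receptor gene Tfrc (0.75) and the amino acid transporter gene Slc7a5 (1.80).

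Biosynthetic lists leaned upward. The other cells, which had fewer UMIs per cell at the median, were not matched for depth or cell cycle. The part of both in these lists was not tested. Of 21 genes of one-carbon and nucleotide synthesis 16 rose and 0 fell (median log2 fold change 0.89, against -0.10 over all genes tested), among them Phgdh, the first enzyme of serine synthesis (445, 337 and 268 CPM in Il2ra+ thymocytes against 145, 124 and 105 CPM in other cells, 1.52), and Cad of pyrimidine synthesis (1.72). Of 18 genes of cholesterol synthesis and uptake 13 rose and 0 fell (median 0.93). Of 14 heat shock genes 8 rose and 1 fell. Of 44 S phase genes 16 rose and 4 fell (median 0.30), while 6 of 47 G2/M genes rose and 6 fell (median 0.00). Of 32 p53 target genes tested 6 rose and 11 fell. Cdkn1a, the cell cycle inhibitor p21, stood at 52.7, 75.1 and 26.8 CPM against 11.1, 10.5 and 5.04 CPM (2.62, adjusted p = 2.2e-10 by edgeR), and the death receptor gene Fas (-2.48) and Trp53inp1 (-2.05) fell. In the BCL2 family 0 of 14 rose and 4 fell, among them Bcl2l1 (-2.28). The cell cycle kinase gene Cdk6 (2.88) and the cyclin gene Ccnd2 (0.997) rose, and Ccnd3 fell (-2.07).

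Most but not all of the cells carried transcripts of the DN2-DN3 stage. Notch-stage transcripts were counted per cell as the summed UMIs of Ptcra, Dtx1, Hes1, Notch1 and Notch3. None of 32 p53 AD/- cells lacked them, against 4 of 75 in p53-/- and 9 of 59 in p53+/-, and those 13 cells also had no Tcrg constant UMI. At least 3 such UMIs were present in 29, 69 and 46 cells of p53 AD/-, p53-/- and p53+/-. A single UMI is a low bar at the depth of these cells and does not assign a stage to a cell. Cells at the threshold were less marked over the 3 libraries together: 75.0% of the 32 cells with exactly 2 Il2ra UMIs carried a Notch-stage UMI, 93.1% of 58 cells with 3 to 5 and 98.7% of 76 cells with 6 or more, at median depths of 11294.5, 11493 and 14139.5 UMIs. At exactly 2 Il2ra UMIs, 100% of 8 cells were marked in p53 AD/-, 81.8% of 11 in p53-/- and 53.8% of 13 in p53+/-, on few cells. The 8 p53 AD/- cells included 1 with 544 antigen-presenting UMIs and 1 with 3 Trac UMIs, each marked by 1 Notch-stage UMI. These shares therefore do not rank the libraries by purity. Just outside, 82 cells had 1 Il2ra UMI and met the other limits, and 57.3% of them carried a Notch-stage UMI at a median depth of 7580 UMIs. Cells with no Il2ra UMI that met the other limits, 4094 in all, carried one in 18.9% at 3815 UMIs. By coreceptor UMIs, 96 cells had 0 and 70 had 1 to 3, while of the cells outside the limit 20 had 4 to 9 and 41 had 10 or more. Median Notch-stage counts of these bins were 12.5, 10, 8.5 and 4 UMIs. Free RNA in droplets gives low counts of abundant genes in all cells, and its part in these shares was not tested.

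A first range within the Il2ra+ thymocytes held progenitor transcripts. With at least 5 UMIs over 10 early progenitor and DN2 markers, and setting aside the cells with alpha chain or antigen-presenting transcripts described next, it held 5 of 32 p53 AD/- cells (15.6%, exact interval 5.28% to 32.8%), 8 of 75 p53-/- cells (10.7%, 4.72% to 19.9%) and 4 of 59 p53+/- cells (6.78%, 1.88% to 16.5%). It is a cut through a continuous score and not a cell type: 3 of these cells had 5 or 6 such UMIs, and 9 of the 132 remaining cells had 3 or 4. The cells were set beside the 143 other Il2ra+ thymocytes without antigen-presenting transcripts. Ptcra had 0 UMIs in the progenitor range and 379 outside it, and Rag1 had 2 and 526. Kit, one of the markers that made the cut, stood at 124 CPM inside and 12.3 CPM outside. Tcrg-C1 stood at 573 CPM inside and 227 CPM outside. Cd3e stood at 169 CPM inside and 544 CPM outside, Notch3 at 11.7 and 44.8 CPM, and Hes1 at 535 and 374 CPM. These are sums over 3 libraries. In each library Ptcra was at 0 UMIs inside the range, against 94, 167 and 118 UMIs outside it in p53 AD/-, p53-/- and p53+/-. The cytotoxic granule gene Nkg7 stood at 183 CPM inside and 41.9 CPM outside.

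**Figure D2:**
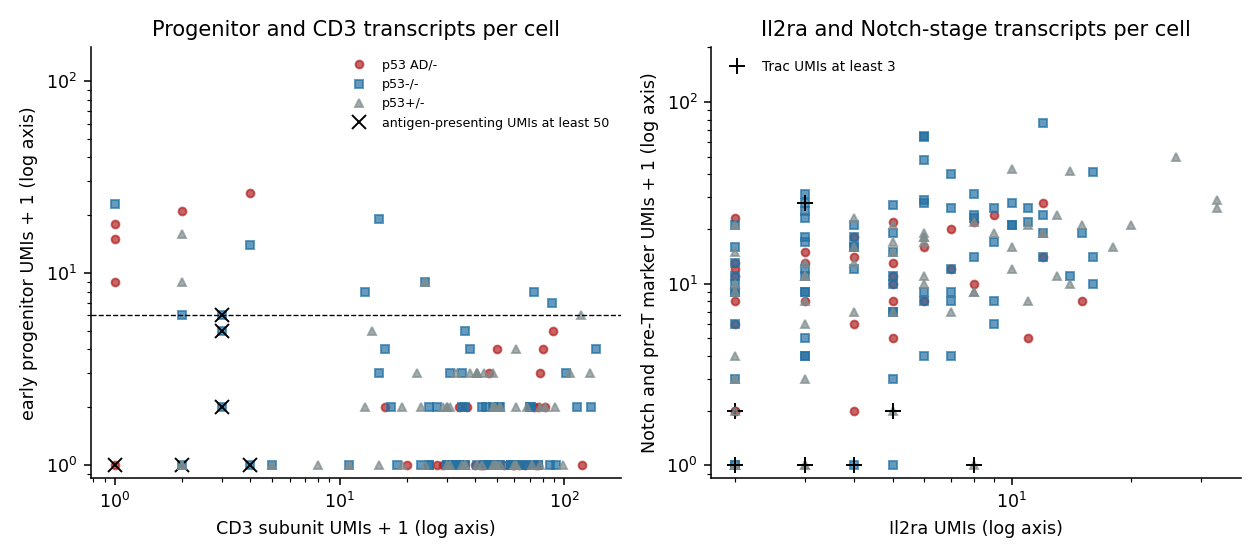
Each point is 1 of the 166 Il2ra+ thymocytes. Left: UMIs of early progenitor markers against UMIs of Cd3e, Cd3d and Cd3g, both plus 1 on log axes, with the limit of 5 UMIs dashed and the 6 antigen-presenting cells crossed. Right: Notch-stage UMIs plus 1 against Il2ra UMIs, on log axes, with the 11 cells of at least 3 Trac UMIs marked by a plus sign.

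A second division was the cell cycle. Of the 160 Il2ra+ thymocytes without antigen-presenting transcripts, 52 had at least 10 UMIs of Mki67, Top2a, Cdk1, Ccnb2 and Birc5 (8 of the p53 AD/- library, 29 of p53-/- and 15 of p53+/-), and the other 108 had fewer. Rag1 stood at 49.8 CPM in the cycling cells and 403 CPM in the others, Ptcra at 62.8 and 245 CPM, Notch3 at 17.0 and 76.9 CPM, Tcrg-C1 at 170 and 454 CPM, and Notch1 at 160 and 324 CPM. Each of Rag1, Ptcra, Notch1 and Tcrg-C1 was lower in the cycling cells of all 3 libraries: Rag1 at 41.0, 49.7 and 52.8 CPM in cycling cells of p53 AD/-, p53-/- and p53+/-, against 239, 424 and 478 CPM in the others. Trbc2 did not follow them, at 2131 and 1764 CPM. This division overlapped the progenitor range, whose 17 cells had a median of 19 cycling UMIs, against 1 in the 132 remaining cells. Their median depths were 22949 and 11777 UMIs. The part of this overlap and of depth in the values above was not tested. CPM shows shares of a cell's RNA, not amounts per cell.

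The rule also admitted cells with other transcripts. In 6 cells (1 of p53 AD/-, 5 of p53-/-, 0 of p53+/-) there were 93 to 862 UMIs of H2-Aa, H2-Ab1 and Cd74, genes of antigen presentation, and at most 3 CD3 UMIs. Keratin UMIs (Krt5 and Krt8) were also present in 5 of them. Summed over 8 myeloid and dendritic markers, Il2ra+ thymocytes held 1428, 1448 and 35.1 CPM in p53 AD/-, p53-/- and p53+/-, and 1 cell gave 80.2% of the p53 AD/- sum and 47.5% of the p53-/- sum. Itgax and Csf1r were at 0 in all 3 libraries. Summed over 10 epithelial and stromal markers the values were 173, 203 and 106 CPM, with Foxn1, Col1a1, Pdgfra and Cdh5 at 0 in all 3. Another 11 cells (1, 2 and 8) had at least 3 Trac UMIs, and their median Notch-stage count was 0. Between genotypes, counts are therefore also given without the 6 cells, and for the 132 remaining cells (25, 60 and 47) outside all 3 ranges.

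Each genotype comparison shares a library with each of the others, so none is a repeat of another. A gene counted as past the fold when its CPM differed at least 2-fold, among genes with at least 30 UMIs over the pair. In p53 AD/- over p53+/- Il2ra+ thymocytes 4.17% of 5419 genes were higher and 11.2% lower, with a median log2 ratio over all genes of -0.09. In p53-/- over p53+/- 2.8% of 6989 genes were higher and 1.2% lower (median 0.05). In p53 AD/- over p53-/- 2.93% of 6112 genes were higher and 13.1% lower (median -0.17). By direction alone, at any size, 2397 of these genes were higher and 3022 lower in p53 AD/- over p53+/-. The same counts were 3920 and 3069 in p53-/- over p53+/-, and 2432 and 3680 in p53 AD/- over p53-/-. Counts of list genes higher or lower below are to be read beside these. Without the 6 antigen-presenting cells, 191 and 588 genes of 5371 were higher and lower in p53 AD/- over p53+/-, 103 and 89 of 6772 in p53-/- over p53+/-, and 170 and 673 of 5841 in p53 AD/- over p53-/-. With median-of-ratios scaling the split in p53 AD/- over p53-/- was 267 higher and 635 lower, and the median of all genes moved by 0.13. In the larger sums of other cells, 21 genes were higher and 49 lower past 2-fold in p53 AD/- over p53+/-. With at least 100 UMIs over the pair, the shares of Il2ra+ thymocytes for that pair were 2.16% higher and 6.06% lower. Shares past the fold depend on summed UMIs, which differ between the libraries, so the 3 pairs are not directly comparable. The part of counting error in these shares was not tested.

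Trp53 itself, the altered gene, stood at 154, 125 and 123 CPM in Il2ra+ thymocytes of p53 AD/-, p53-/- and p53+/- (73, 173 and 133 UMIs). Since no label gives the altered stretch of Trp53, this transcript count checks neither genotype.

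The Notch receptors were lower in p53 AD/- cells. Notch1 stood at 124, 249 and 219 CPM (59, 345 and 237 UMIs) in p53 AD/-, p53-/- and p53+/-. Its log2 ratio was -0.82 for p53 AD/- over p53+/- (-1.25 to -0.40), 0.19 for p53-/- over p53+/- (-0.06 to 0.43) and -1.003 for p53 AD/- over p53-/- (-1.43 to -0.60). Notch3 stood at 14.7, 39.7 and 49.8 CPM (7, 55 and 54 UMIs), with log2 ratios of -1.76 (-3.14 to -0.62), -0.33 (-0.90 to 0.24) and -1.43 (-2.81 to -0.29) in the same order. The other cells of the same libraries showed the same order for Notch1, at 26.9, 73.5 and 59.1 CPM (log2 ratio -1.13 for p53 AD/- over p53+/-), so the difference was not confined to Il2ra+ thymocytes. Notch2 had 0, 17 and 9 UMIs, and a count of 0 in p53 AD/- allows up to 7.77 CPM by the exact Poisson interval. Transcripts of the 4 Notch ligand genes were under the minimum in every pair.

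Notch targets did not move together. Ptcra was higher in p53 AD/- cells, at 198, 121 and 109 CPM (94, 167 and 118 UMIs) in p53 AD/-, p53-/- and p53+/-, with log2 ratios of 0.86 (0.46 to 1.27), 0.15 (-0.20 to 0.50) and 0.72 (0.34 to 1.09) for p53 AD/- over p53+/-, p53-/- over p53+/- and p53 AD/- over p53-/-. Its ratio in other cells was 0.71 for p53 AD/- over p53+/-. Hes1 was highest in p53-/-, at 386, 479 and 274 CPM (183, 663 and 297 UMIs), with log2 ratios of 0.49 (0.22 to 0.76), 0.80 (0.60 to 1.01) and -0.31 (-0.56 to -0.07). In cells with no cycling UMI the Hes1 ratio of p53 AD/- over p53+/- was -0.08. Among other cells the Hes1 ratio of p53-/- over p53+/- was larger, 1.52. Dtx1 stood at 29.5, 18.1 and 25.8 CPM on 14, 25 and 28 UMIs, and all of its intervals included 0. Igf1r, a growth factor receptor gene on the target list, had 2, 44 and 40 UMIs (4.21, 31.8 and 36.9 CPM, log2 ratio -3.13 for p53 AD/- over p53+/-, -6.23 to -1.18). Of the 6 targets measured in p53 AD/- over p53+/-, 3 were higher and 3 lower. Il2ra itself, which chose the cells, is among the lower ones and is given only as a description. It stood at 362, 336 and 415 CPM.

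**Figure D3:**
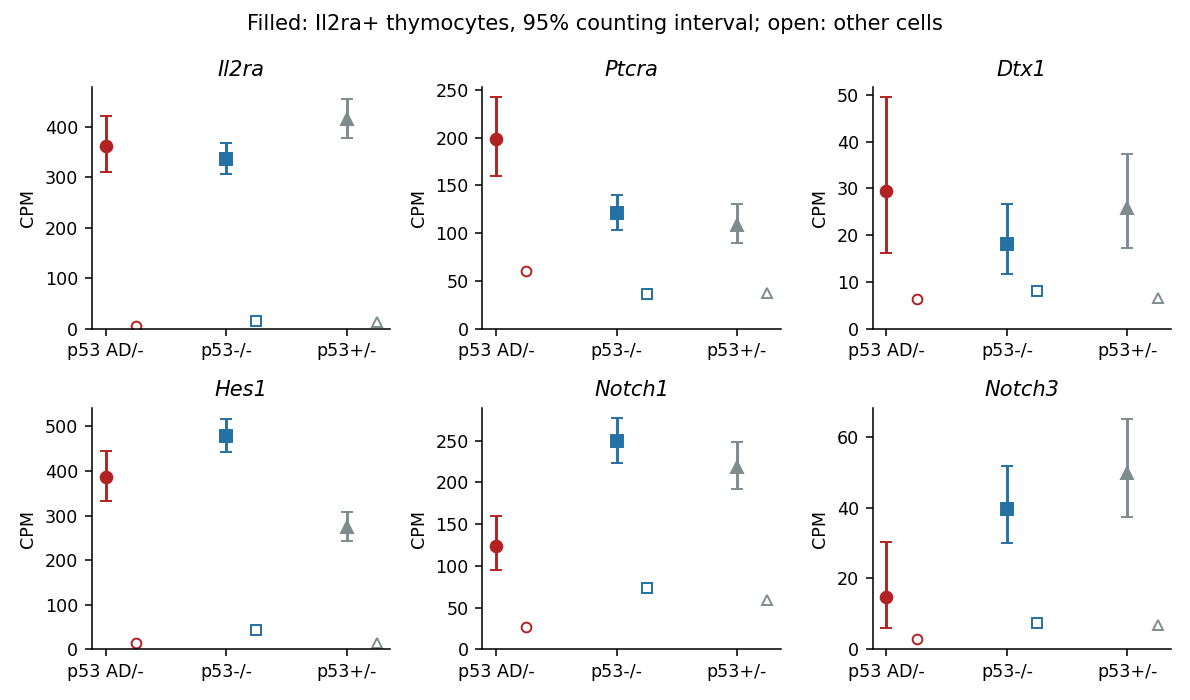
CPM of Il2ra and 5 Notch-stage genes by genotype in Il2ra+ thymocytes (filled, with exact Poisson 95% intervals) and in all other filtered cells of the same library (open). The p53 AD/- library is highest for Ptcra and lowest for Notch1 and Notch3, in Il2ra+ thymocytes and in other cells.

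Progenitor genes were higher and T lineage factors lower in the p53 AD/- cells. All 4 progenitor genes measured in p53 AD/- over p53+/- were higher, 2 of them past 2-fold, with a list median of 0.98. These transcripts sat in few cells: the 5 p53 AD/- cells of the progenitor range held 84 of that library's 104 early marker UMIs, against 86 of 132 in 8 p53-/- cells and 36 of 79 in 4 p53+/- cells. No list median was obtained for the remaining cells, and for p53-/- over p53+/- the list had 1 gene higher and 3 lower (median -0.08). Mef2c stood at 50.6, 20.2 and 16.6 CPM (24, 28 and 18 UMIs) in p53 AD/-, p53-/- and p53+/- (log2 ratio 1.61 for p53 AD/- over p53+/-, 0.66 to 2.57). Kit stood at 40.0, 26.0 and 28.6 CPM, and its interval included 0 (0.48, -0.42 to 1.35). Among genes under the minimum, picked after their values were seen, Spi1, a myeloid and early progenitor factor, had 15, 10 and 6 UMIs (31.6, 7.22 and 5.54 CPM) and Lyl1 16, 15 and 2 UMIs (33.7, 10.8 and 1.85 CPM, log2 ratio 4.19 for p53 AD/- over p53+/-, 2.10 to 7.35). Nkg7 stood at 169, 36.8 and 45.2 CPM (80, 51 and 49 UMIs), and its ratio of p53 AD/- over p53+/- was 1.90 on the log2 scale (1.37 to 2.44), against 0.07 in other cells. Marker lists of other T cell types moved with these genes. Summed over 8 gamma-delta T cell markers, Il2ra+ thymocytes held 1340, 808 and 763 CPM in p53 AD/-, p53-/- and p53+/-, against 184, 197 and 166 CPM in other cells. All 8 were detected in each library, and 5, 8 and 6 of them had at least 3 UMIs. The list includes Tcrg-C1, Tcrg-C2 and Tcrg-C4, given above as genes of T cell precursors, so the sum does not set another T cell type apart. The sum over 6 NK and innate T cell markers was 169, 39.7 and 48.0 CPM, with 1, 3 and 2 of the 6 detected and Zbtb16 at 0 by the rule. In p53 AD/- all 80 UMIs were of Nkg7, and Klrb1c and Ncr1 were at 0 in all 3 libraries. The part of other T cell types in the differences was not tested.

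Of 13 T lineage factors measured in p53 AD/- over p53+/-, 12 were lower, 6 of them past 2-fold, and 1 was higher, with a list median of -0.99 against -0.09 over all genes and -0.32 for the list in other cells. Lef1, a partner of beta-catenin, stood at 82.2, 200 and 261 CPM (39, 277 and 283 UMIs) in p53 AD/-, p53-/- and p53+/- (log2 ratio -1.67 for p53 AD/- over p53+/-, -2.19 to -1.18). Ikzf1, which encodes Ikaros, stood at 46.3, 136 and 178 CPM (-1.94, -2.65 to -1.30), Satb1 at 103, 294 and 294 CPM (-1.51, -1.98 to -1.07), Gata3 at 46.3, 82.3 and 102 CPM (-1.14, -1.88 to -0.48), and Id3 at 10.5, 32.5 and 47.1 CPM (-2.16, -3.84 to -0.84). Bcl11b, which seals T cell commitment, stood at 265, 477 and 528 CPM (-0.99, -1.28 to -0.71), and Tcf7 at 360, 560 and 614 CPM (-0.77, -1.02 to -0.52). Runx3 was the exception, at 90.6, 50.5 and 39.7 CPM (1.19, 0.55 to 1.83). For p53-/- over p53+/- the median of the list was -0.13 over 15 genes with 0 past 2-fold, and for p53 AD/- over p53-/- it was -0.74 over 14 genes with 4 lower past 2-fold.

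The progenitor range, which was cut on early markers including Kit, held 15.6%, 10.7% and 6.78% of the cells of p53 AD/-, p53-/- and p53+/-. In the 132 remaining cells the T lineage list had a median of -0.61 for p53 AD/- over p53+/-, with Ikzf1 at -1.86, Lef1 at -1.37 and Satb1 at -1.16. The part of the progenitor cells in the differences between all Il2ra+ thymocytes was not tested beyond these values.

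**Figure D4:**
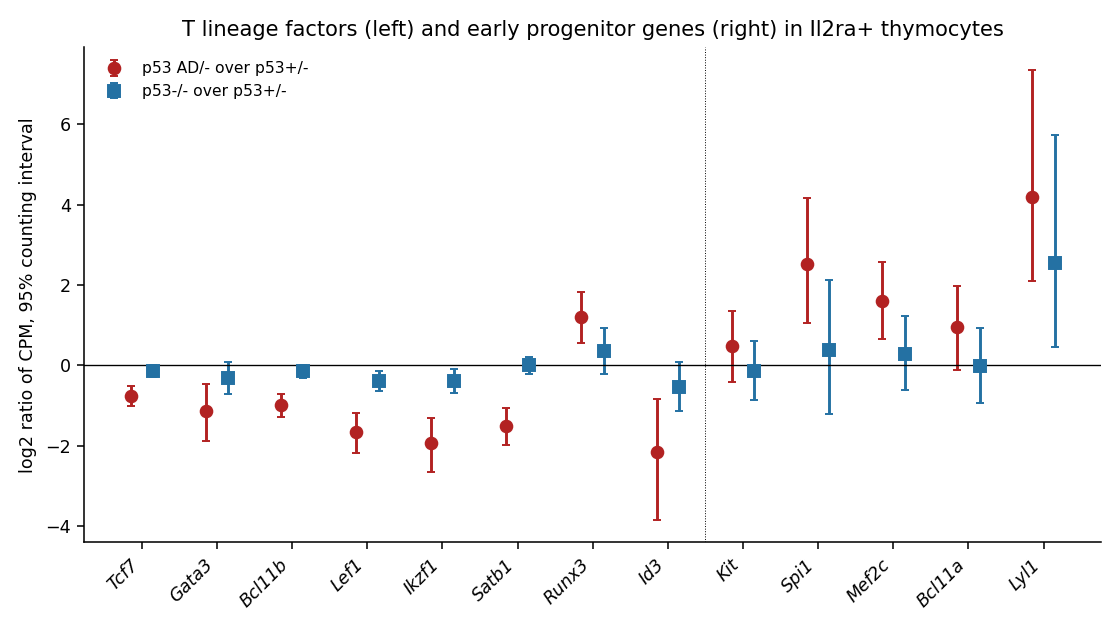
Log2 ratio of CPM in Il2ra+ thymocytes for p53 AD/- over p53+/- (circles) and p53-/- over p53+/- (squares), with exact conditional 95% counting intervals, for 8 T lineage factors (left of the dotted line) and 5 early progenitor genes (right). For p53 AD/- over p53+/- the T lineage factors other than Runx3 lie below 0, and the progenitor genes lie above it. Lyl1 rests on 2 UMIs in p53+/-.

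Genes that mark passage through beta-selection were lower in p53 AD/- than in p53+/- for 7 of 8 measured, 6 past 2-fold, with a list median of -1.33 (0.22 in other cells). Cd28 stood at 16.9, 43.3 and 66.5 CPM (8, 60 and 72 UMIs) in p53 AD/-, p53-/- and p53+/-, and the activation marker gene Cd69 at 48.5, 46.2 and 111 CPM. Cd2 stood at 10.5, 15.9 and 41.5 CPM and Cd5 at 14.7, 10.1 and 38.8 CPM. All 5 Cd2 UMIs of p53 AD/- came from 1 cell. The cells with at least 3 Trac UMIs, 1, 2 and 8 in number, moved with this list. So did 5 regulatory T cell markers, at 139, 183 and 353 CPM in p53 AD/-, p53-/- and p53+/- Il2ra+ thymocytes, with Foxp3 and Ctla4 at 0 by the rule, against 239, 289 and 257 CPM in other cells. Without the Trac cells the list median was -0.84 and the Cd69 ratio -0.42 for p53 AD/- over p53+/-, where Cd69 had been -1.19. In the 132 remaining cells its median was -0.81 for p53 AD/- over p53+/-, and Cd2 turned to a log2 ratio of 0.82 for p53-/- over p53+/-, where it had been -1.39 over all Il2ra+ thymocytes. The genes Itm2a, Cd52 and Tnfrsf4, among the lowest of that pair (-1.57, -1.46 and -2.10), turned to 0.31, 0.24 and 1.19 when the Trac cells were left out. Over the remaining cells Itm2a and Tnfrsf4 stood at 0.65 and 1.05, but Cd52 at -0.83, and without the antigen-presenting cells alone Cd52 stood at -2.02.

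The pre-T receptor list was near level, with a median of 0.28 for p53 AD/- over p53+/- (12 genes, 0 past 2-fold), 0.01 for p53-/- over p53+/- and 0.10 for p53 AD/- over p53-/-. Cd3g stood at 2134, 1260 and 1234 CPM (log2 ratio 0.79 for p53 AD/- over p53+/-, 0.67 to 0.91, and 0.54 in other cells). Rag1 stood at 147, 152 and 233 CPM, with log2 ratios of -0.66 (-1.06 to -0.27) and -0.61 (-0.88 to -0.34) for p53 AD/- and p53-/- over p53+/-. Among cells under 5% mitochondrial UMIs the first of these turned to 0.47. Dntt stood at 933, 661 and 678 CPM (0.46, 0.29 to 0.63, for p53 AD/- over p53+/-).

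Cell cycle transcripts were lowest in the p53 AD/- cells and highest in the p53-/- cells. Of 44 G2/M genes measured in p53 AD/- over p53+/-, 35 were lower, with a median of -0.45, and of 46 in p53-/- over p53+/-, 39 were higher, with a median of 0.28. Over all genes 3022 of 5419 were lower in the former pair and 3920 of 6989 higher in the latter. The S phase medians were -0.45 and 0.23. Mki67, a proliferation antigen gene, stood at 150, 515 and 436 CPM in p53 AD/-, p53-/- and p53+/- (log2 ratio -1.54 for p53 AD/- over p53+/-, -1.92 to -1.18), and Top2a at 362, 836 and 606 CPM. A single p53 AD/- cell gave 47.9% of that library's Mki67 UMIs, and among cells with 0 coreceptor UMIs the Mki67 ratio of p53 AD/- over p53+/- turned to 1.18. The replication checkpoint gene Clspn stood at 12.6, 96.8 and 110 CPM (6, 134 and 119 UMIs, -3.12, -4.59 to -1.95), and Rrm2, a subunit of ribonucleotide reductase, at 12.6, 88.8 and 62.8 CPM. Mcm7 of the replicative helicase stood at 179, 323 and 177 CPM (0.86, 0.62 to 1.12, for p53-/- over p53+/-, and 0.88 in other cells). In other cells the G2/M medians were 0.17 for p53 AD/- over p53+/- and 0.40 for p53-/- over p53+/-. Cells with at least 10 cycling UMIs made up 8 of 32, 29 of 75 and 15 of 59, which on so few cells allows wide shares.

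Transcripts of the mitochondrial genome were lower in p53 AD/-: 12 of 13 were lower than in p53+/-, 6 past 2-fold, with a median of -0.94, and the same list ran at -0.84 in other cells. Nuclear genes of oxidative phosphorylation did not follow, with a median of 0.17 and 1 of 76 past 2-fold. Median mitochondrial shares per Il2ra+ thymocyte were 3.23%, 4.40% and 4.86% and median Malat1 shares, a nuclear RNA, 0.267%, 1.28% and 1.19% in p53 AD/-, p53-/- and p53+/-, against Malat1 shares of 2.80%, 5.63% and 5.08% over all filtered cells. The part of RNA recovery in this was not tested. Gapdh of glycolysis stood at 1824, 1404 and 1078 CPM (log2 ratio 0.76 for p53 AD/- over p53+/-, 0.63 to 0.89, and 0.82 in other cells), and the glycolysis list had a median of 0.34. The antioxidant list had a median of 0.48, with the glutathione peroxidase gene Gpx1 at 687, 298 and 267 CPM (1.36, 1.13 to 1.60, and 0.57 in other cells).

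Of p53 targets, 4 of 10 measured were higher and 6 lower in p53 AD/- than in p53+/- (median -0.02). Over all genes of that pair 2397 of 5419 were higher and 3022 lower. In p53-/- over p53+/- 10 of 16 targets were higher and 6 lower (0.13), against 3920 and 3069 of 6989 genes. Both splits lay near those of all genes. In p53 AD/- over p53-/- 3 of 13 were higher and 10 lower (-0.41, against -0.17 over all genes, of which 2432 of 6112 were higher and 3680 lower). Cdkn1a stood at 52.7, 75.1 and 26.8 CPM (25, 104 and 29 UMIs) in p53 AD/-, p53-/- and p53+/-, so it was higher in p53-/- than in p53+/- cells (log2 ratio 1.49, 0.88 to 2.14), and the same ratio was 1.05 in other cells. Of the p53-/- UMIs outside the antigen-presenting cells, 41 came from the 8 cells in the progenitor range and 49 from the other 62, against 0 and 29 in p53+/-. Over the remaining cells the ratio was 0.48. Bcl2, a survival gene, stood at 46.3, 67.2 and 126 CPM (22, 93 and 136 UMIs, log2 ratio -1.44 for p53 AD/- over p53+/-, -2.16 to -0.78) and the pro-apoptotic gene Bcl2l11 at 23.2, 64.3 and 85.8 CPM (-1.89, -2.94 to -0.98). Without the Trac cells Bcl2l11 stood at -0.97 and in the remaining cells at -0.76, where Bcl2 stood at -0.83. Nr3c1, the glucocorticoid receptor gene, stood at 67.4, 160 and 206 CPM (-1.61, -2.19 to -1.07), and Zfp36l2, an RNA decay factor gene, at 187, 482 and 509 CPM (-1.44, -1.78 to -1.11), which in other cells ran at -2.33.

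**Figure D5:**
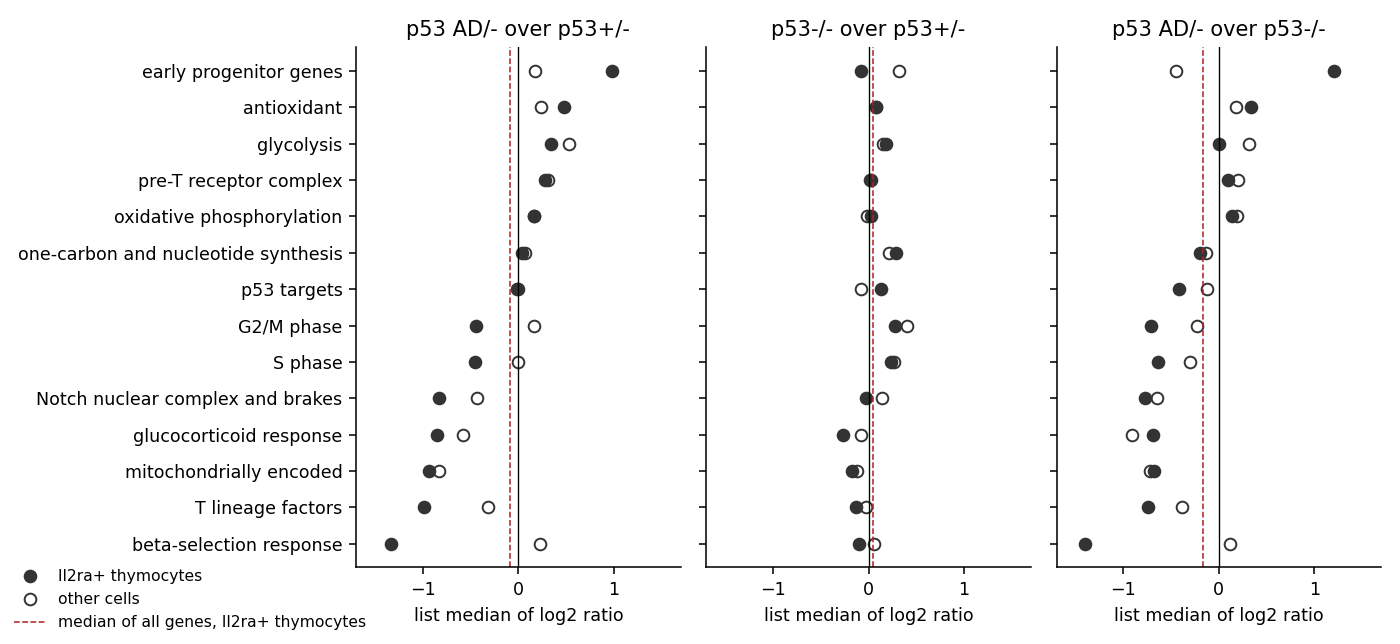
Median log2 ratio of 14 gene lists in Il2ra+ thymocytes (filled) and in all other filtered cells (open) for the 3 pairs of libraries, with the median of all genes in Il2ra+ thymocytes dashed. In p53 AD/- over p53+/- the beta-selection list lies at -1.33 against 0.22 in other cells, while the mitochondrially encoded list lies at -0.94 and -0.84.

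At the extremes of p53-/- over p53+/-, antigen presentation genes led: Cd74 reached 737 CPM in p53-/- cells, against 7.38 CPM in p53+/- cells, and H2-Aa reached 310 CPM against 2.77 CPM. Without the 6 antigen-presenting cells Cd74 had a log2 ratio of 0.04 and H2-Aa of -0.29. Without those cells the highest genes of this pair included Gfod2 (70 and 11 UMIs, log2 ratio 2.38), the calcium channel gene Orai1 (63 and 20 UMIs, 1.37) and the mitochondrial one-carbon enzyme genes Mthfd2 (76 and 26 UMIs, 1.26) and Shmt2 (90 and 33 UMIs, 1.16). Of 21 genes of one-carbon and nucleotide synthesis 16 were higher in p53-/- than in p53+/- with a median of 0.29 (0.22 in other cells). Over all genes of this pair 3920 of 6989 were higher. Without the 6 antigen-presenting cells, the noncoding RNA gene Tsix was lowest in p53 AD/- over p53+/- (4 and 119 UMIs, -3.64, and -2.07 in other cells). Also among the lowest were Chka of choline metabolism (3 and 74 UMIs), Clspn, Cdc6 (4 and 56 UMIs), the kinase gene Sik1 (6 and 83 UMIs) and the demethylase gene Kdm6b (6 and 78 UMIs, -2.45). In other cells these ran at -0.78, -0.43, -0.23, -0.55 and -0.82, so their direction was not confined to Il2ra+ thymocytes. The highest included Nkg7, Ebp of sterol synthesis (35 and 27 UMIs, 1.63, and 0.44 in other cells) and the purine salvage gene Pnp (38 and 30 UMIs, 1.59, and 0.45 in other cells). Lyz2, a myeloid gene, led that list at 4.41, and 89.7% of its p53 AD/- UMIs came from 1 cell.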

How the data were processed

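Single-cell RNA libraries of 3 mouse thymi were read from the deposited gene by barcode tables of raw UMI counts. Per the submitters' processing notes, Cell Ranger 4.0.0 and GRCm38 were used; whether doublets were removed is not stated there. The counts were filtered (at least 500 genes, under 10% mitochondrial UMIs), the Il2ra+ thymocytes selected by the rule stated above, and their counts summed per library with Python 3.11.15 and scipy 1.17.1. The members, gene lists and comparisons were chosen with earlier results of these data known. Scrublet was run through scanpy 1.11.5.

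CPM intervals are exact Poisson, shares exact Clopper-Pearson and ratios exact conditional binomial intervals at 95%. Between genotypes, with 1 library each, no test was possible. Il2ra+ thymocytes were compared with all other filtered cells by edgeR 4.0.16 (R 4.3.3; TMM factors, filterByExpr, library as a block, glmQLFit and glmQLFTest), a test added after the data were seen, leaving out the 7 genes of the rule; DESeq2 1.42.0 was an alternative. The edgeR test was checked on counts simulated with a fixed dispersion, and DESeq2 was not checked. The ratio intervals were checked on simulated Poisson counts, the error they assume. That check cannot speak to spread between cells or mice.

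Genes named between genotypes were, per pair, among the 10 highest and 10 lowest with at least 60 UMIs, Trp53, the stage markers, the Notch genes, and up to 4 genes per other list; exceptions, including genes named without the antigen-presenting cells, were chosen after their values were seen. Sequences are from RefSeq on GRCm38.p6; Hes1 and Myc are not shown.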

Additional observations from a re-analysis of the deposited data

How the results depend on the processing

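No paired analysis was possible because each genotype had 1 library. Alternatives that keep to the antigen-presenting, Trac, progenitor or comparison-cell divisions, and all those of the test against other cells, were chosen after the data were seen. Shares of Il2ra+ thymocytes in p53 AD/-, p53-/- and p53+/- became 0.778%, 1.19% and 1.06% with 1 Il2ra UMI allowed and 0.275%, 0.503% and 0.380% with 0 coreceptor UMIs. Without a coreceptor limit they became 1.13% in p53-/- and 0.969% in p53+/-, and under 5% mitochondrial UMIs the p53+/- share was 0.520%.

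Counts of genes past the fold moved with the minimum UMIs and the fold. In p53 AD/- over p53+/- (226 higher, 605 lower) they were 46 and 129 at 100 UMIs, 3158 and 1804 at 1 UMI, and 672 and 1352 at a fold of 1.5. The higher count was 365 with 1 Il2ra UMI allowed. The lower count was 350 with 0 coreceptor UMIs and 209 in cells with no cycling UMI. In p53-/- over p53+/- (196 and 84) they were 30 and 14 at 100 UMIs, 1866 and 936 at 1 UMI, 627 and 420 at a fold of 1.5, and 334 and 208 with the mean of per-cell CPM. The higher count was 364 without a coreceptor limit, 103 without the antigen-presenting cells, 107 in the remaining cells and 99 in cells with no cycling UMI. In p53 AD/- over p53-/- (179 and 798) they were 44 and 181 at 100 UMIs, 3103 and 2238 at 1 UMI, and 614 and 1667 at a fold of 1.5. The higher count was 329 with 1 Il2ra UMI allowed, and the lower count 172 in cells with no cycling UMI.

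Of the named genes' log2 ratios past 2-fold, 18 values turned. For p53 AD/- over p53+/- these were Cd74 at -0.00716 without a coreceptor limit, -0.162 without the antigen-presenting cells and -0.801 in the remaining cells, H2-Aa at -0.707 without a coreceptor limit, and Mki67 at 1.18 with 0 coreceptor UMIs. For p53-/- over p53+/-, Cd2 turned to 0.691 without the Trac cells and 0.824 in the remaining cells, Itm2a to 0.314 and 0.647, and Tnfrsf4 to 1.19 and 1.05, with 0.524 in cells with no cycling UMI. Cd52 turned to 0.241 without the Trac cells, Cd74 to -0.0124 in the remaining cells, and H2-Aa to -0.286 without the antigen-presenting cells and -0.275 in the remaining cells. For p53 AD/- over p53-/-, Cd28 and Lef1 turned to 0.488 and 1.95 in cells with no cycling UMI. Under 2-fold, 6 values turned where the counting interval had excluded 0: Hes1 to -0.08 with no cycling UMI and Rag1 to 0.47 under 5% mitochondrial UMIs for p53 AD/- over p53+/-, and, for p53-/- over p53+/-, Cd28 to 0.03 without the Trac cells and 0.15 in the remaining cells and Lef1 to 0.02 with at least 3 Il2ra UMIs and 0.28 with 0 coreceptor UMIs. A further 47 turned where the interval had included 0, among them Dtx1 to -0.67 for p53 AD/- over p53+/- with no cycling UMI and Bcl2l11 to 0.49 for p53-/- over p53+/- without the Trac cells. Under the alternatives 86 list medians moved beyond the spread among the genes of their list and 1174 did not. The cause of these moves was not tested beyond the cells left out.

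Against other cells (1733 higher, 2259 lower by edgeR), leaving out each library in turn gave 1158 to 1684 higher and 1403 to 2239 lower genes, the lowest lower count without p53-/-, and DESeq2 gave 1400 lower. Dntt turned to -0.00364 against preselection DP cells. Itch missed the threshold without p53-/- (adjusted p = 0.091 by edgeR). The p53 AD/- cells, with the fewest UMIs, limit the depth of both their pairs.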

Other observations

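Genes of immediate early response were not part of the comparisons above. In p53-/- over p53+/- Il2ra+ thymocytes 12 of 17 measured were higher, 3 of them past 2-fold, with a list median of 0.42. Over all genes of this pair 3920 of 6989 were higher. Without the 6 antigen-presenting cells the list median was 0.02, and in other cells it was 0.68. Of 13 genes of glucocorticoid response tested against other cells 3 rose and 4 fell by edgeR's quasi-likelihood test. In p53 AD/- over p53+/- 6 of 8 measured were lower, with a median of -0.85 against -0.58 in other cells. Over all genes of that pair 3022 of 5419 were lower.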
